A study of Mus musculus with 4 samples.

Results

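The regulators of G protein signalling (RGS) studied here were the 9 genes Rgs1, Rgs2, Rgs3, Rgs10, Rgs13, Rgs14, Rgs16, Rgs18 and Rgs19. Every probe set that the platform annotation assigns to 1 of these symbols alone was taken, which gave 19 probe sets of 45101 on the array. They were read in 4 populations of B cells from C57BL6/J wild type mice, each measured on 1 single-colour array. Germinal centre (GC) B cells divide and mutate their antibody genes during a response, and they had been sorted as B220+PNA+Fas+. Naive cells had been sorted as B220+PNA-Fas-. GC and naive cells of peripheral lymph nodes (pLN) came from mice immunized with the hapten carrier TNP-KLH in incomplete Freund's adjuvant, so the naive pLN cells were also from immunized animals. GC and naive cells of Peyer's patches (PP), which are lymphoid tissue in the gut wall, came from mice that had received no treatment. Each RNA was a pool of 3 to 5 mice, and a pool on 1 array gives no spread between animals. Tissue and immunization cannot be told apart in this design. Since these are bulk RNAs, fewer cells of a type and less RNA per cell cannot be told apart either.

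RGS proteins end the signal of G protein coupled receptors. They bind the active alpha subunit of the G protein and speed its hydrolysis of GTP, after which the subunit closes again on the beta and gamma subunits. In B cells the Gi coupled chemokine receptors that steer cells through the follicle are the best known targets, and Rgs1 and Rgs13 are known to dampen B cell responses to chemokines. Members differ in the alpha subunits they serve and in the domains around the shared RGS domain.

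Signals are array intensities scaled so that the trimmed mean of each array is 500. A signal counts as above the detection level when it exceeds the 90th percentile of 80 probe sets for genes of other tissues on the same array. This level was 92.6 on GC pLN, 150 on GC PP, 111 on naive pLN and 303 on naive PP. Log2 differences are of log2(signal + 18.2), which understates the change of dim genes. Of 7 B cell markers, 6 were measured and all 6 lay above the level on every array. All 5 measured GC markers were above it on both GC arrays, as were 3 on naive pLN and 2 on naive PP. Fas, the sort marker, read 4266 and 4980 in GC cells against 515 and 403 in naive cells. Bcl6, another of the 5, read 7082 and 7604 against 5987 and 2990. By the test given below, 4 of the 5 were called higher in GC cells. Bcl6 was not (0.79), but it was with quantile normalization (1.40). The naive RNAs carried a 3' bias: the ratio of 3' to 5' control signal for Gapdh was 1.48 for GC pLN and 1.67 for GC PP, but 18.7 for naive pLN and 96.4 for naive PP. Its part in the differences between GC and naive cells was not tested, and for members with several probe sets all of them are given.

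Rgs13, Rgs1, Rgs10, Rgs14 and 2 of the 4 probe sets of Rgs2 were higher in GC cells, and 1 of the 2 probe sets of Rgs19 was lower. In all, 10 of the 19 probe sets passed the filter on dim signals and were tested with limma, tissue being kept as a block. At an adjusted p under 0.05, 7 of the 10 were called, against 54.4% of all 18694 tested probe sets. Of these, 6 were higher in GC cells, against 36.0% of all tested, and 1 was lower, against 18.4%. Without the GC PP array 3 RGS probe sets were called higher and 0 lower, without GC pLN 5 and 0, without naive pLN 5 and 2, and without naive PP 6 and 2. The median difference of the 10 was 1.53, beside 0.43 for all tested probe sets. Rgs13 and Rgs1 passed the filter through the GC arrays alone and 1 probe set of Rgs18 through the naive arrays alone, so these counts and medians support nothing on the family as such. The other 7 of the 10 tested probe sets lay above the level on all 4 arrays, as did 10944 of all 18694 tested. Counted over all probe sets, tested or not, these were 7 of 19 for the RGS genes and 24.3% of the array. The standard errors (SE) are limma's moderated values. They rest mostly on how far the difference between GC and naive cells varied between the tissues over all tested probe sets of like brightness. Little of them rests on the probe set itself, and they hold nothing of the variation between mice.

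**Figure D1:**
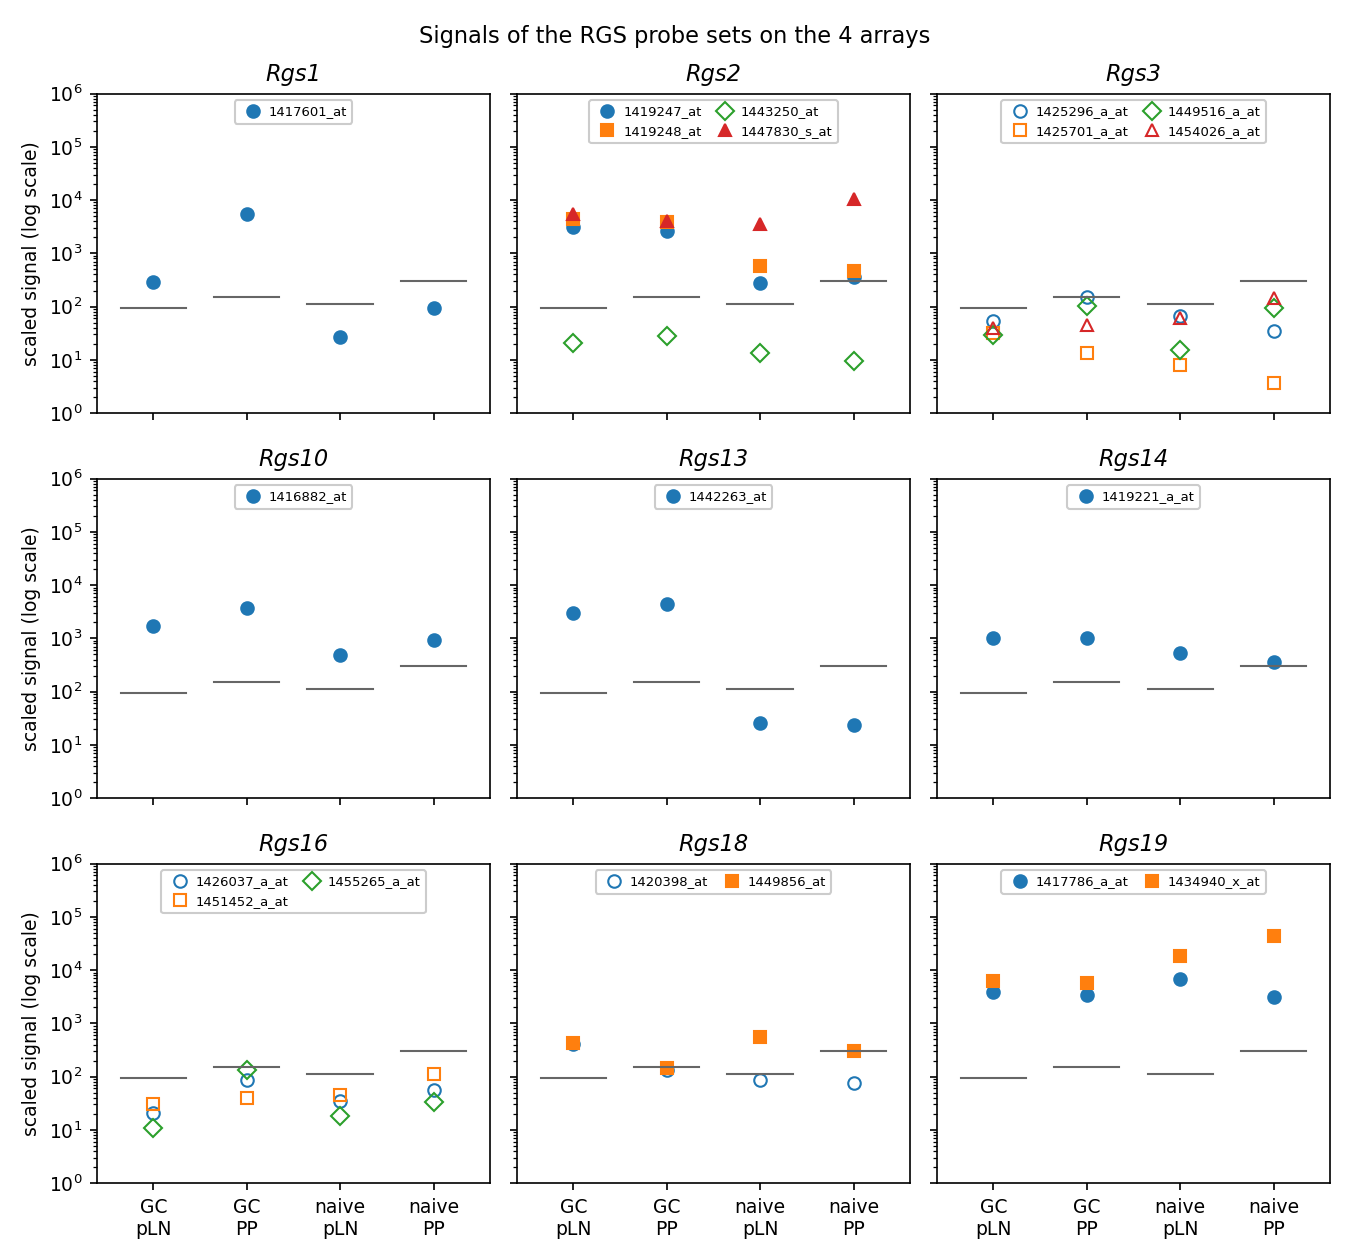
Scaled signal (vertical log axis) of each RGS probe set on the 4 arrays, 1 panel per gene. Filled symbols were tested, open symbols were not, and the grey bars mark the detection level of each array. Rgs13 stands at 2975 and 4409 on the GC arrays and below the level on both naive arrays, and every probe set of Rgs3 and Rgs16 lies below the level throughout.

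Rgs13, a small protein that consists of little more than its RGS domain, showed the largest difference of the family. Its 1 probe set gave 2975 for GC pLN and 4409 for GC PP, but 26.1 for naive pLN and 23.7 for naive PP. The naive signals were both far below the level of their arrays and the 2 cell types did not overlap. GC cells were at least 26.8-fold higher in pLN and at least 14.6-fold higher in PP, where the bounds set the naive signal at the detection level. The smaller bound in PP reflects the higher level of the naive PP array and not a lower GC signal. The mean log2 difference was 6.40 ± 0.45 (moderated SE, limma adjusted p = 1.5e-19), and its call held under every one of the 17 alternatives that gave it a value. With dim signals set to the level the difference was 4.16. Over the 4 arrays, the genes whose centred log2 signals came closest to those of Rgs13 among 9024 others were Gcsam (distance 0.50), a GC signalling protein, Pclaf (0.54), a PCNA-binding factor, and Mybl1 (0.63), a transcription factor. Like Rgs13, these genes were below the level on both naive arrays, with signals from 9.20 to 47.0, so there the likeness is one of undetected signals.

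Rgs1, which is known to desensitise B cells to chemokines, was higher in GC cells and much higher in those of PP. Its 1 probe set read 283 in GC pLN, 5355 in GC PP, 26.4 in naive pLN and 93.2 in naive PP. Both naive signals were below the level, both GC signals were above it, and the GC PP array stood far above the other 3. GC cells were at least 2.55-fold higher than naive cells in pLN and at least 17.7-fold higher in PP. The mean log2 difference was 4.17 ± 0.49 (limma adjusted p = 4.8e-11). Without the GC PP array it was 2.10 and no longer called (adjusted p = 0.0786), and without naive pLN it was 3.51 (adjusted p = 0.0649); over 17 alternatives the adjusted p ranged from 2.8e-17 to 0.0786.

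Rgs2, which acts mainly on the Gq alpha subunit and is induced by many stimuli, was split by probe set. Probe set 1419247_at read 3121 on GC pLN and 2643 on GC PP, against 282 on naive pLN and 356 on naive PP. Probe set 1419248_at read 4371, 3874, 582 and 457 in the same order. On both, each GC array was above each naive array, by 3.11 ± 0.42 (adjusted p = 4.4e-09) and 2.95 ± 0.42 (adjusted p = 1.4e-08, limma). Probe set 1447830_s_at, the brightest of the gene, read 5398 in GC pLN, 4029 in GC PP, 3572 in naive pLN and 10521 in naive PP. Here the cell types overlapped, and the mean difference was -0.39 ± 0.47 (adjusted p = 0.486, limma). Without naive pLN it was called lower (-1.17, adjusted p = 0.0017), and over 17 alternatives the adjusted p reached 0.885. The fourth, 1443250_at, lay below the level on all arrays, between 9.31 and 28.3. The tested probe sets of Rgs2 thus spanned 3.50 log2 units. A span at least as wide was found for 10.3% of the 4063 genes with 2 or more tested probe sets, of which 46.6% had probe sets of opposite sign. For 62.5% of these genes, as for Rgs2, the brightest probe set gave the lowest difference. The mean of the tested Rgs2 probe sets was higher in GC cells by 1.89 ± 0.35 (adjusted p = 1.9e-06, limma on gene means).

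Rgs10 and Rgs14, which both prefer Gi alpha subunits, showed smaller differences. Rgs10 read 1681 in GC pLN and 3648 in GC PP against 482 in naive pLN and 940 in naive PP. Both GC signals were above both naive signals. GC cells were 3.49-fold higher in pLN and 3.88-fold higher in PP, a mean log2 difference of 1.85 ± 0.42 (limma adjusted p = 0.00015). Without the GC PP array it was 1.30 and not called (adjusted p = 0.19), and over the 18 alternatives the adjusted p ranged from 2.4e-06 to that value.

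Rgs14, which besides its RGS domain carries Ras-binding domains and a GoLoco motif that binds Gi alpha in its inactive state, read 1016 on GC pLN, 1034 on GC PP, 527 on naive pLN and 355 on naive PP. The GC arrays nearly coincided and lay above both naive arrays. The difference of 1.21 ± 0.43 (adjusted p = 0.014, limma) was not called with quantile normalization (0.73, adjusted p = 0.118), with cyclic loess (0.79, adjusted p = 0.101), without GC pLN (1.22, adjusted p = 0.206) or without GC PP (1.20, adjusted p = 0.224). Over all 18 alternatives the adjusted p ranged from 0.0028 to 0.224.

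Rgs19, also called GAIP, which acts on Gi alpha subunits and is found on vesicles, was measured by 2 bright probe sets that differed. Probe set 1434940_x_at read 6357 in GC pLN, 5714 in GC PP, 18104 in naive pLN and 43186 in naive PP. Both naive signals were above both GC signals, and the difference was -2.21 ± 0.51 (adjusted p = 0.0002, limma). The median of all tested probe sets in its bin of brightness was -0.76. The difference shrank to -1.30 with quantile normalization and to -1.09 with cyclic loess, and kept its call in both. It was -0.78 and not called with scaling to the spike-ins (adjusted p = 0.0857), and it also lost its call without GC pLN (-2.29, adjusted p = 0.0797) or GC PP (-2.13, adjusted p = 0.102); the range over 17 alternatives was 6.4e-06 to 0.102. Probe set 1417786_a_at read 3872, 3434, 6668 and 3066 in the same order, so that the naive arrays enclosed the GC arrays, and the difference was -0.31 ± 0.44 (adjusted p = 0.571, limma). Without naive PP it was called lower (-0.87, adjusted p = 0.0038), and over 16 alternatives the adjusted p reached 0.848. The x in the name of 1434940_x_at marks probes that can also bind other transcripts, so its reading is uncertain for Rgs19. The 2 probe sets were 1.90 log2 units apart, a gap reached by 40.9% of genes with several tested probe sets. Their mean, which includes the uncertain 1434940_x_at, differed by -1.26 ± 0.39 (adjusted p = 0.0044, limma on gene means). Closest to 1434940_x_at in pattern were Trmt10b (distance 0.08) and Bcdin3d (0.09), which encode methyltransferases that modify RNA, and Myh9 (0.09), a non-muscle myosin heavy chain.

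Rgs18, best known from platelets and myeloid cells, was dim. Probe set 1449856_at read 430 in GC pLN, 147 in GC PP, 545 in naive pLN and 308 in naive PP, with the GC PP signal just under its level of 150. The difference between cell types was -0.66 ± 0.45 (adjusted p = 0.216, limma), but it was called lower with quantile normalization (-1.24, adjusted p = 0.0331) and cyclic loess (-1.26, adjusted p = 0.0069); the adjusted p ranged up to 0.958 over 16 alternatives. Probe set 1420398_at read 414 on GC pLN, its only signal above the level, and 134, 87.8 and 76.8 on GC PP, naive pLN and naive PP. On this probe set GC cells of pLN were at least 3.73-fold above naive cells, whereas on the other they were 1.27-fold below. It was not tested, but with a background list from which Gh and Prm1 were left out it passed the filter and was called higher (1.38 ± 0.49, adjusted p = 0.024, limma). Of 6 platelet and megakaryocyte markers, 5 lay below the level on every array, and the sixth, the integrin gene Itgb3, read between 1010 and 2923. The summed signal of 10 myeloid markers was 3316 in GC pLN, 4486 in GC PP, 1176 in naive pLN and 1305 in naive PP. Most of the difference was in Apoe, a lipid carrier of macrophages, at 2528, 3561, 304 and 492 in that order, while Adgre1, which encodes the macrophage antigen F4/80, read 55.8, 20.5, 323 and 96.4.

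No probe set of Rgs3 or Rgs16 rose above the level on any array. The 4 probe sets of Rgs3, a gene with several isoforms of which the long ones carry domains for membrane or protein binding, read between 3.61 and 149. The highest, 1425296_a_at, was 149 on GC PP, just under its level of 150, and 53.2, 67.7 and 34.8 on GC pLN, naive pLN and naive PP. The 3 probe sets of Rgs16, a small RGS protein induced in activated lymphocytes, read between 10.8 and 134, the highest being 1455265_a_at on GC PP. These genes were not detected at this signal over background, which does not show that they are absent. The call depends on the background list: without Gh and Prm1 in it the level of GC PP was 69.6, and 2 probe sets of Rgs3 (149 and 102) and 2 of Rgs16 (84.8 and 134) exceeded it there. The 10 measured other members of the gene family, among them Rgs4, Rgs5, Rgs7 and Rgs8, did not pass the filter either. Chosen after their values were seen, Rgs9 (615) and Rgs12 (177) exceeded the level on the GC PP array alone, and the other 8 on none.

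**Figure D2:**
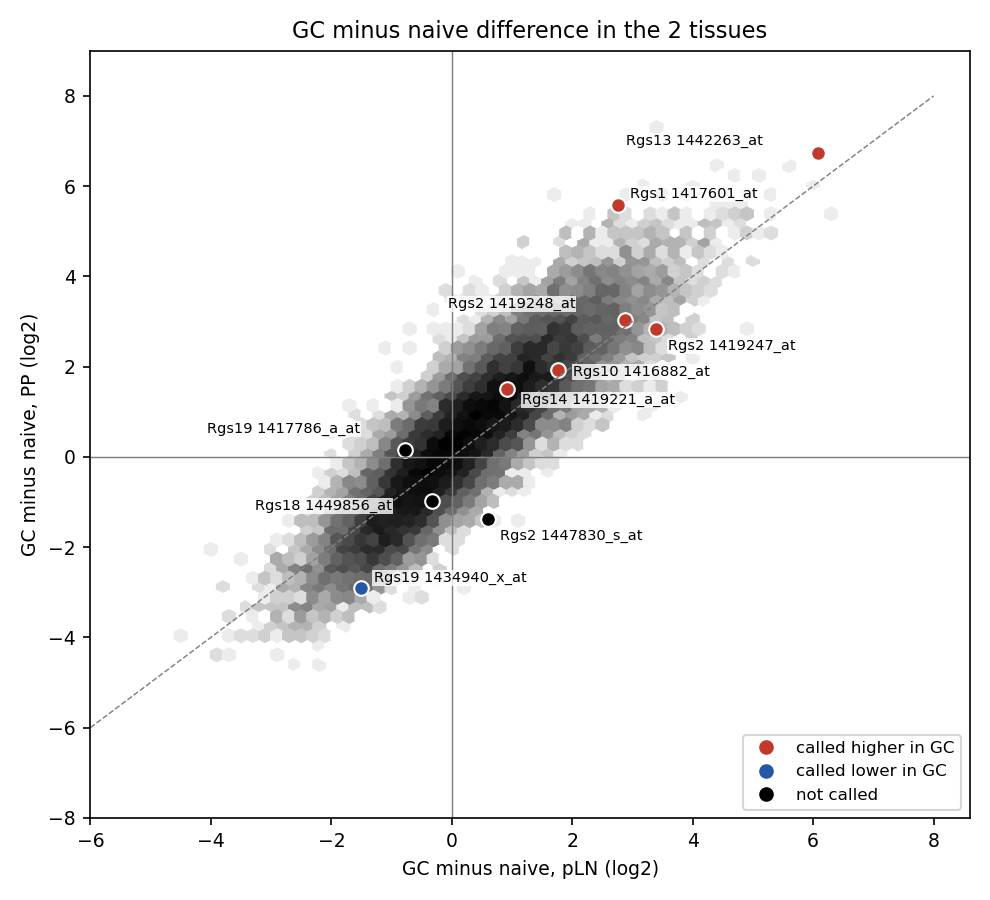
Difference between GC and naive cells on the log2 scale in pLN (horizontal) and PP (vertical) for the 10 tested RGS probe sets, over the density of all 18694 tested probe sets in grey. The dashed line marks equal differences. Rgs13 lies at the upper end in both tissues, Rgs1 at 2.76 and 5.59, and probe set 1447830_s_at of Rgs2 at 0.59 and -1.38.

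Set side by side, the differences in the 2 tissues rested on separate arrays, and both naive arrays carried the 3' bias. In pLN, 11 RGS probe sets exceeded the level on whichever array was brighter, and of these 6 were at least 2-fold higher in GC cells (30.1% of all probe sets so measured) and 1 lower (18.2%). In PP there were 10, of which 6 were higher (42.2%) and 2 lower (20.8%). Of the 10 tested probe sets, 5 were at least 2-fold higher in both tissues (28.0% of all tested) and 1 lower in both (13.5%). Rgs10 differed by 1.77 in pLN and 1.94 in PP, and 1419247_at and 1419248_at of Rgs2 by 3.38 and 2.87 in pLN and 2.83 and 3.04 in PP. For Rgs1 it was 2.76 against 5.59. With 1 array in each group, none of the differences between tissues can be tested.

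In the second comparison, PP was set against pLN within each cell type, 1 array against 1 array and with no test. Rgs1 was 18.9-fold higher in GC cells of PP than of pLN, a log2 difference of 4.16, and Rgs10 was 2.17-fold higher. Rgs18 was lower in PP by both of its probe sets, with a bound of at least 2.76-fold for 1420398_at and of at least 2.87-fold for 1449856_at. The other 7 of the 11 RGS probe sets above the level differed by less than 2-fold, Rgs13 by 1.48-fold, Rgs14 by 1.02-fold and the 3 bright probe sets of Rgs2 by 1.13-fold to 1.34-fold. The share of all probe sets past 2-fold was 3.39% on the higher side and 1.56% on the lower.

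Naive cells were compared in the same way. There Rgs1, Rgs13, Rgs3 and Rgs16 were below the level on both arrays. Rgs10 was 1.95-fold higher in PP, so that its signal was higher in PP in both cell types. Probe set 1447830_s_at of Rgs2 was 2.95-fold higher and 1434940_x_at of Rgs19 2.39-fold higher in PP, while 1417786_a_at of Rgs19 was 2.17-fold lower. These were the 3 of 8 RGS probe sets above the level that passed 2-fold, against 6.86% of all probe sets higher and 19.0% lower. The 3'/5' ratio of Gapdh differed between these same arrays, at 18.7 and 96.4, and its part in them was not tested.

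**Figure D3:**
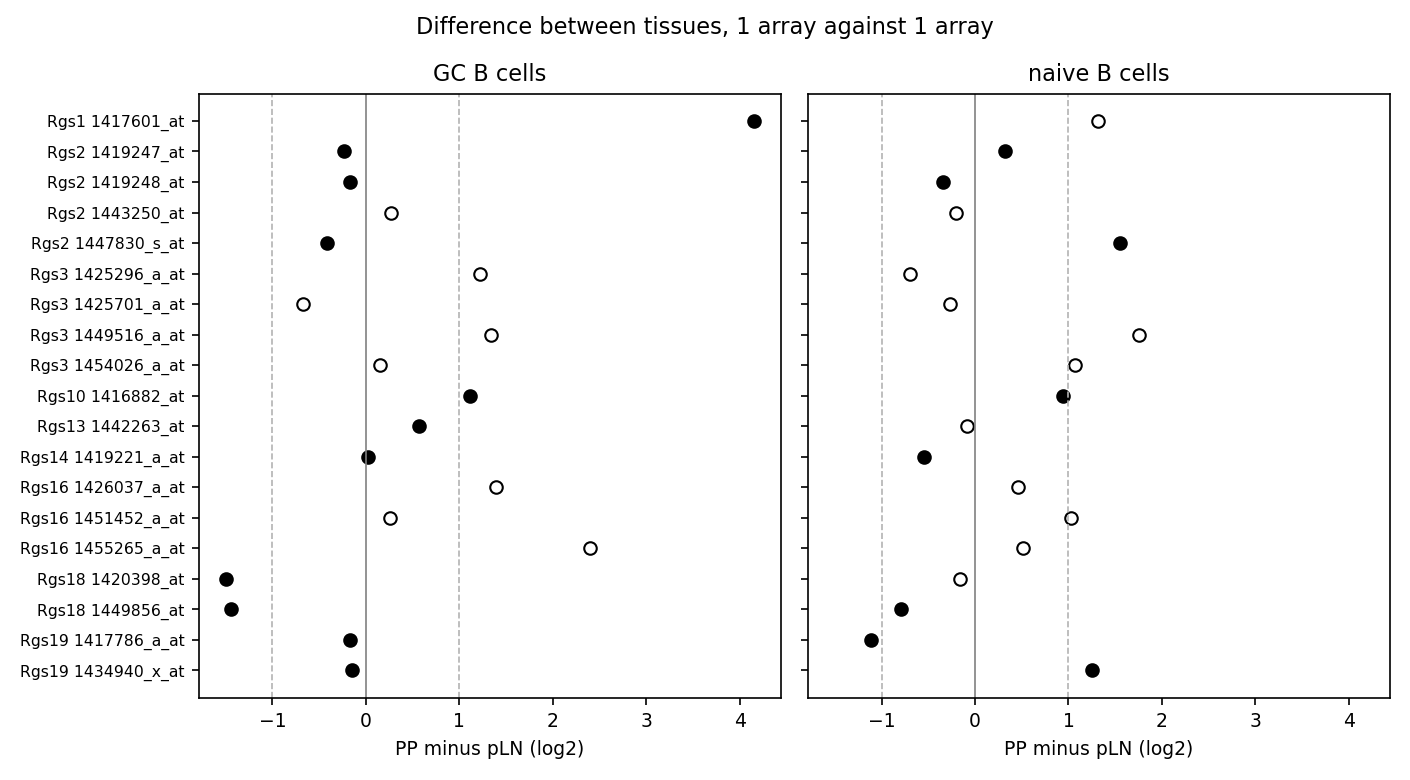
Log2 difference between PP and pLN for each RGS probe set in GC cells (left) and naive cells (right), 1 array against 1 array. Filled points were above the detection level on the brighter array, open points were not, and dashed lines mark 2-fold. Rgs1 in GC cells stands apart at 4.16.

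Some markers of other cells also read higher in GC PP than in GC pLN, while others did not. The part of other cells in the Rgs1 signal was not tested. The T cell list, with 8 measured genes, had 3 above the level and a summed signal of 564 in GC pLN, and 4 above and 1146 in GC PP, while in naive pLN and naive PP the sums were 986 and 582. The genes named here from the marker lists were chosen after their values were seen. Cd3e, a chain of the T cell receptor complex, read 95.3 and 244 on these arrays, and 95.8 and 74.1 on naive pLN and naive PP. All 5 plasma cell markers were above the level on both GC arrays, with sums of 18223 and 22115, against 6347 and 2787 in naive cells. Prdm1, the transcription factor of plasma cells, read 118 in GC pLN, 1007 in GC PP, 38.2 in naive pLN and 78.1 in naive PP. The other plasma cell markers differed less between GC pLN and GC PP: Sdc1 read 499 and 2024, Xbp1 2647 and 3333, Jchain 9253 and 10618, and Mzb1 5705 and 5133. Of the dendritic cell list Itgax, an integrin gene, read 30.7 in GC pLN and 424 in GC PP, and Flt3 1083 and 1231. Of the stromal list Cxcl13, a follicular chemokine, read 41.9 and 296, and Clu 67.2 and 396. Cr2, also on that list but not specific to stromal cells, read 4009 and 2884. The gut epithelium list summed to 498 in GC pLN, 1252 in naive pLN and 1703 in GC PP, but was highest, at 3376, in naive PP, where Rgs1 was below the level. Chosen after its values were seen, the pattern of Rgs1 was closest to those of Gzma (distance 1.32), a granule protease of cytotoxic lymphocytes, at 256 in GC pLN and 2244 in GC PP, Tox2 (1.36), a nuclear factor, at 244 and 5080, and Gnaz (1.48), at 132 and 1374. Like Rgs1, these genes were below the level on both naive arrays.

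Rgs2, Rgs13, Rgs1 and Rgs18 are neighbours on chromosome 1 in the RefSeq gene order of the mouse. Between each member and the next lay 2 gene records, none of them measured here, and the only protein-coding gene among these records was Rgs21, which has no probe set of its own in the annotation used. Uchl5, a deubiquitinase gene on the other side of Rgs2 with 2 records between, was higher in GC cells by 1.53 (adjusted p = 0.0015, limma). The 4 neighbours did not follow 1 pattern. Rgs13 was similar in GC cells of the 2 tissues, Rgs1 was higher in PP and Rgs18 higher in pLN. Rgs16 lay on the same chromosome but with 90 records between it and Rgs18.

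Promoter sequences from RefSeq (GRCm38.p6) were matched by symbol for 6 of the 9 members. Rgs1, Rgs14 and Rgs18 had no entry. Those of Rgs13, Rgs2 and Rgs10 are shown since these members had probe sets called higher in GC cells. Each is the 250 bases before a start that the table gives, 5' to 3' on the gene's strand. For Rgs2 and Rgs13 that start is the end of the RefSeq gene record, and for Rgs10 it is not. Capitals mark matches on either strand to any of 7 motifs: the TATA box (TATAAA), the CCAAT box (CCAAT), the GC box (GGGCGG), the octamer (ATTTGCAT), the site known for the AP-1 factors (TGANTCA), the cyclic AMP element (TGACGTCA) and a narrow form of the E-box (CAGNTG). Other forms of the E-box were not searched. No motif holds another.
Rgs13, chr1:144177373-144177622, minus strand: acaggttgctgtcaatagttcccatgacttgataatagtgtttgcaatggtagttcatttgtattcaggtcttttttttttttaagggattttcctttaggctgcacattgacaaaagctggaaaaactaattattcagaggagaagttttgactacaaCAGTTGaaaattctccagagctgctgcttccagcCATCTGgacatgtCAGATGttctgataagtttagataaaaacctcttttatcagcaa
Rgs2, chr1:144004150-144004399, minus strand: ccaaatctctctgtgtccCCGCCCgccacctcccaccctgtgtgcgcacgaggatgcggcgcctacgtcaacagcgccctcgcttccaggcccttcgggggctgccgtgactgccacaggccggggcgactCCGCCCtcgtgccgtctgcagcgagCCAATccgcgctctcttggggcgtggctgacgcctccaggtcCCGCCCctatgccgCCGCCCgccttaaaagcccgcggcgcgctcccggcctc
Rgs10, chr7:128418173-128418422, minus strand: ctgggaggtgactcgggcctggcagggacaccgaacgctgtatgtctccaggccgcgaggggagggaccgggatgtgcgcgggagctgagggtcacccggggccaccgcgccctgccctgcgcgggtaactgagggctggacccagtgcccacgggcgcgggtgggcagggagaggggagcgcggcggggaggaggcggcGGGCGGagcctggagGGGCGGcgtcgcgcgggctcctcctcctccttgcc
The sequences differ in composition. The Rgs13 window had 36.0% G and C and 0 CpG, below which lay 5.81% of 32851 windows of the same length by G and C content. Rgs2 had 72.4% and 30 CpG, and Rgs10 76.4% and 27 CpG, against medians of 52.4% and 6. The capitals in Rgs13 are 3 matches to this form of the E-box, which 44.8% of all windows hold. Those in Rgs2 are 4 matches to the GC box (32.7% of windows) and 1 to the CCAAT box (33.8%), and those in Rgs10 are 2 matches to the GC box. The TATA box (12.4%), the octamer (1.6%), the AP-1 site (6.75%) and the cyclic AMP element (1.55%) had no match in these 3 windows. Such matches describe letters and not binding.

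The other genes of the G protein cycle were read by the brightest probe set of each. Of all 9025 tested genes, 51.3% were called by that reading, 26.8% higher in GC cells and 24.5% lower, with a median of 0.00083. Of the 7 RGS genes so tested, 5 were called, 4 higher and 1 lower, with a median of 1.21. With scaling to the spike-ins, none of the genes of these lists that were called lower kept that call. Of 8 tested alpha subunits, 2 were higher, 1 lower and 5 not called (median 0.53). Gnaz, a Gi family member that is a substrate of several RGS proteins, was at least 2.33-fold higher. Gna13, through which S1pr2 signals, was 2.06-fold higher (1.04 ± 0.44, adjusted p = 0.0397, limma), with its 7 probe sets between 1.04 and 2.75 and its call lost without rescaling (0.90). Gnas, the stimulatory subunit, was 3.07-fold lower, but its 3 tested probe sets ranged from -1.61 to 2.12, and it was not called with cyclic loess (-0.60). Gnai2, the main Gi subunit of lymphocytes, was picked after its values were seen. It read 5152 on GC pLN, 4122 on GC PP, 3054 on naive pLN and 3925 on naive PP and was not called (0.41 ± 0.44, limma adjusted p = 0.439), but it was with quantile normalization (0.76) and the spike-ins (1.83).

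Beta and gamma subunits were higher in GC cells for 5 of 7 tested genes, with none called lower (median 1.22). Of the 7, Gnb4, Gnb2, Gng12 and Gng13 passed the filter through the GC arrays alone. In the other lists Gnaz, Gna12, Grk5, Adcy3, Gpsm2, Ric8b, S1pr2 and Cxcr3 did so too. Arrb1 passed through the naive arrays alone, so the filter bears on the direction of the counts of these lists. Gnb4 was at least 14.2-fold higher, Gnb2 at least 3.19-fold, Gng12 at least 2.78-fold and Gnb1 2.35-fold; Gng12 was not called with quantile normalization (0.87). Receptor kinases and arrestins, which silence receptors rather than G proteins, were lower for 3 of 4 tested genes and higher for none (median -1.42). Arrb1, an arrestin, was at least 5.96-fold lower and Arrb2 2.31-fold lower, but with scaling to the spike-ins Arrb2 turned to 0.22. Grk6, a receptor kinase, was 3.12-fold lower, while its 3 probe sets ranged from -1.64 to 1.88, and it was not called with cyclic loess (-0.71).

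Among GPSM and RIC8 regulators, which bind or load alpha subunits without a receptor, 1 of 5 tested genes was higher and 1 lower (median -0.08). Gpsm2, which also orients the mitotic spindle, was at least 4.03-fold higher, and Gpsm1 6.13-fold lower. Of 4 tested phospholipase C beta and adenylyl cyclase genes, 2 were lower and none higher (median -0.77). Plcb2 was 2.58-fold lower in the mean, but in pLN it read 586 in GC and 512 in naive cells, and in PP 177 and 1342, and with scaling to the spike-ins the mean was 0.07. Adcy7 was 3.23-fold lower, with its 3 probe sets between -1.69 and 1.78 and no call with cyclic loess (-0.57).

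Of 10 tested migration receptors, 4 were higher and 4 lower (median -0.31). S1pr2, which holds cells in the follicle centre, was at least 19.6-fold higher and Cxcr3 at least 3.12-fold higher, while Ccr7, which draws cells to T cell zones, was 10.9-fold lower and Cnr2, a cannabinoid receptor, 7.84-fold lower. The difference of Cxcr4, a chemokine receptor gene picked after its values were seen, was 0.06 ± 0.46 (limma adjusted p = 0.925), and with the spike-ins it was called higher (1.48).

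**Figure D4:**
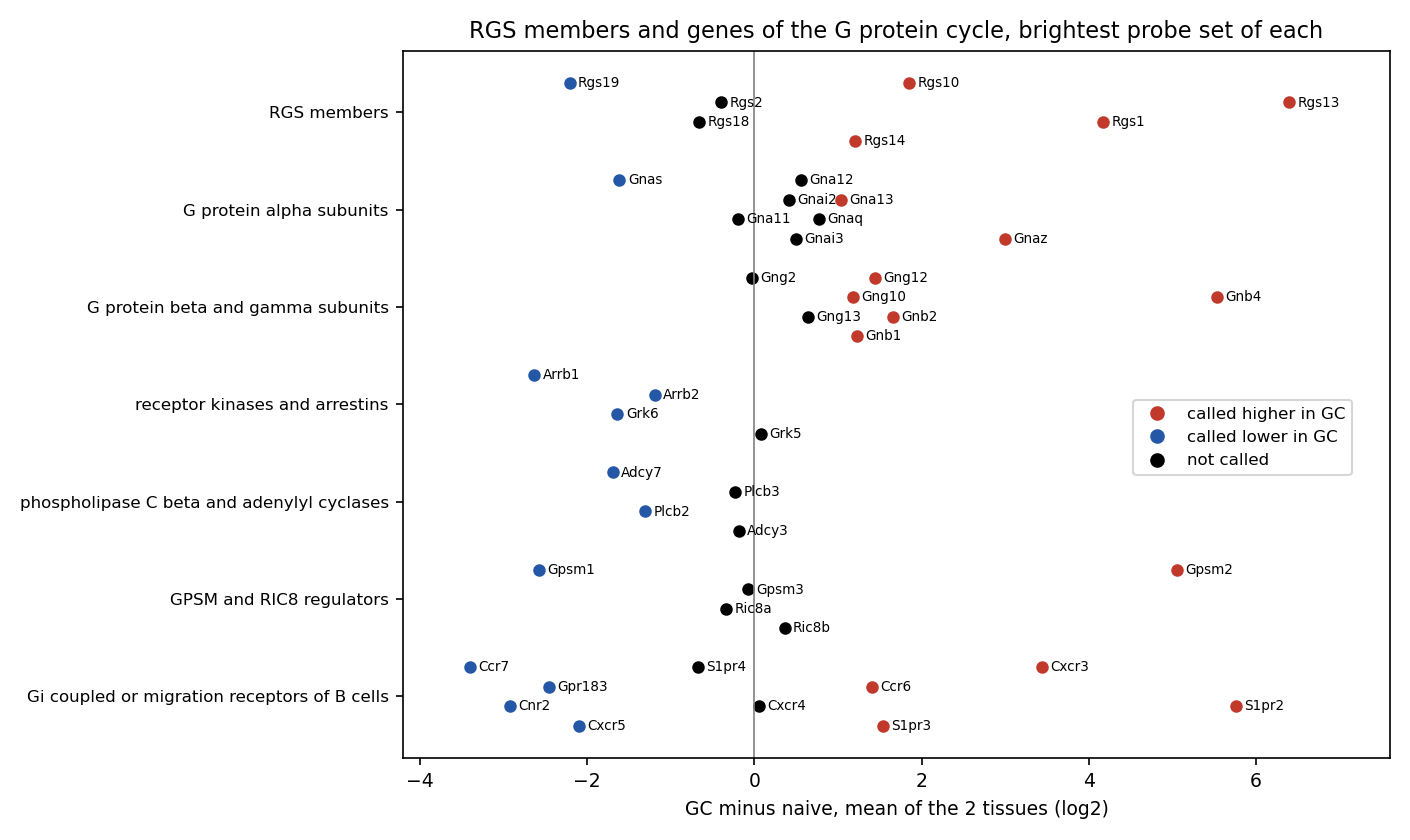
Mean log2 difference between GC and naive cells (horizontal) for the brightest probe set of each tested gene, by list; the vertical spread within a list only separates labels. Red points were called higher, blue lower and black not called at an adjusted p under 0.05. Rgs13, Gnb4, S1pr2 and Gpsm2 lie at the right, and the 3 called kinase and arrestin genes at the left of 0.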

How the data were processed

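The authors deposited linear intensities of 4 arrays, divided by the median of each array. GCOS is named in the submitters' processing notes, and the algorithm, version and scaling target behind it are not stated there. Of 45101 probe sets, 34958 had 1 gene symbol, 932 several and 9211 were not listed. Each array was rescaled to a 2% trimmed mean of 500, since the trimmed means ranged from 7.35 to 10.0. The offset of 18.2 is the median of a background list of 49 genes of other tissues, whose 90th percentile set the detection level.

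The 18694 probe sets that exceeded it in a cell type in both tissues entered 1 fit in limma (version 3.58.1, run in R 4.3.3). Tissue was a block, the prior variance followed intensity, and p-values were adjusted by Benjamini-Hochberg. Only 1 degree of freedom is left for the residuals, beside 73.9 for the prior. The fit was tested on simulated data. Comparisons of 1 array with 1 array have no test. Likeness is the Euclidean distance of log2 signals centred on their mean over 4 arrays. Named genes were all members and, from each list of the G protein cycle, up to 4 called genes with the largest absolute difference; genes named from marker lists, and others so described, were chosen after their values were seen. The results of 1 list are not reported here. The members and lists were chosen with earlier results of these data known. Alternatives covered scaling, offset, filter, background list, probe set choice, block, trend and each array left out. 0 columns were left unused.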

Additional observations from a re-analysis of the deposited data

Results flagged for a closer look

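A pair of probe sets moved in opposite directions in the 2 tissues. Probe set 1447830_s_at of Rgs2 was higher in GC cells of pLN by 0.59 and lower in those of PP (-1.38), on the log2 scale. Probe set 1417786_a_at of Rgs19 was lower in GC cells of pLN (-0.78) and differed by 0.16 in PP. With 1 array in each group these differences between tissues were not tested.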

How the results depend on the processing

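Of 168 values of RGS probe sets under alternatives, 145 kept their direction and their side of the threshold, 10 lost the call, 4 gained one and 9 changed sign. Those that changed sign belonged to probe sets that were not called. With scaling to the spike-ins, Rgs18 1449856_at stood at 0.67, Rgs19 1417786_a_at at 1.11 and Rgs2 1447830_s_at at 1.03. With cyclic loess Rgs19 1417786_a_at was 0.15 and Rgs2 1447830_s_at 0.22, and with quantile normalization the latter was 0.15. The median of all tested probe sets, 0.43, was 1.78 with the spike-ins, 0.29 without rescaling, 0.13 with quantile normalization and 0.20 with cyclic loess. The cause was not tested.

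RGS probe sets called lower numbered 1, against 0 with the spike-ins and 2 with quantile normalization or cyclic loess, where 5 rather than 6 were called higher. Over all probe sets, 6731 were called higher and 3445 lower. With the spike-ins these were 7623 and 106, and with quantile normalization 5169 and 4250. The calls and their balance also changed with the probe sets tested. With all 4 arrays above the level, 1883 of 10944 were called higher and 3203 lower, and the median was -0.28. With no filter, 6899 of 45037 were called higher and 4479 lower, and the median was -0.13. The counts were 2350 higher and 2181 lower with the brightest probe set of each gene, and 3134 and 1886 with gene means. Between PP and pLN, the 4 RGS probe sets past 2-fold in GC cells were 8 with no filter or without Gh and Prm1 in the background list, and 1 with all 4 arrays above the level; the 3 in naive cells were 7 with no filter. Without Gh and Prm1 the detection level was 32.7 instead of 92.6 on GC pLN and 69.6 instead of 150 on GC PP.

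With 1 array left out and no block, the calls of RGS probe sets were 3 to 6 higher and 0 to 2 lower, and those of all probe sets 2442 to 8418 higher and 761 to 4674 lower; the lone array is then assumed to vary like the others. The fewest calls came without GC PP; without GC pLN, 2793 of all probe sets were called higher and 861 lower. The values ranged from -1.38 to 0.063 for Rgs18 1449856_at, from -0.87 to 0.25 for Rgs19 1417786_a_at and from -1.17 to 0.38 for Rgs2 1447830_s_at. The arrays are paired by tissue, which is the block, since the labels give no replicate numbers. Without the tissue block 5870 of all probe sets were called higher and 3139 lower, and of the RGS probe sets 6 and 1; the adjusted p was 0.0327 for Rgs1 and 0.0017 for Rgs13. Signal over background limits Rgs3, Rgs16 and Rgs18.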
